A study of Homo sapiens with 70 samples.

Results

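The 44 genes described here are interferon-stimulated genes, a fixed list of genes that cells switch on in response to interferon. They were found by symbol among the 44503 gene identifiers of 3 RNA-seq count tables, and all 44 were matched. The study asked how the chromatin protein HMGA1, and then the transcription factor CEBPB with or without the shp53 knock-down, shape gene expression in oncogene-induced senescence (OIS), the lasting growth arrest that an active RAS oncogene causes in normal cells. RNA was measured in 70 libraries of 11 groups.

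All IMR90 cells, which are human lung fibroblasts, carried pLNCX2 ER:HRAS G12V, an oncogenic RAS fused to an oestrogen receptor part so that 4-hydroxytamoxifen (4OHT) activates it. OIS groups were given 100 nM 4OHT for 6 days and Grow groups were not. In the first experiment Grow and OIS cells carried the empty vector pMSCV miR v, and Grow-shA1 and OIS-shA1 cells carried pMSCV miR shHMGA1, with 8 libraries in each of these 4 groups. In the second, Grow-v-v and OIS-v-v cells carried the empty vectors pSuper v and pMSCV miR v. OIS-shCEBPB cells carried pSuper shCEBPB with pMSCV miR v, OIS-shp53 cells carried pSuper v with pMSCV miR p53, and OIS-shCEBPB-shp53 cells carried both knock-down vectors, with 5 libraries in each of these 5 groups. The third experiment compared H1299 cells, a non-small cell lung carcinoma line, with pMSCV miR v in 7 libraries and with pMSCV miR shHMGA1 in 6. No group was given 4OHT without ER:HRAS, so the drug and the oncogene cannot be told apart here. The labels put Grow-v-v at day 0 and OIS-v-v at day 6, so day and 4OHT cannot be told apart between them. They give no day for Grow and Grow-shA1. The labels call the libraries biological replicates without saying whether they came from separate transductions, so p-values measure the spread between these libraries.

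Interferons are secreted proteins that warn neighbouring cells of viruses or misplaced nucleic acid. Type I interferons bind the receptor pair IFNAR1 and IFNAR2, the kinases JAK1 and TYK2 then activate STAT proteins such as STAT2, and IRF9 joins them in a complex that binds interferon-stimulated response elements (ISRE) in promoters. Many of the genes switched on encode proteins that block virus entry, RNA translation or virus release, and others encode the sensors and transcription factors of the pathway itself. In senescent fibroblasts, an interferon response is known as one part of the secretory programme of these cells.

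The sequence that the complex of STAT2 and IRF9 reads was looked for in the members' promoters, because the list was not chosen on sequence. RefSeq promoter windows (GRCh38.p14, 250 bases before to 50 after a start site) were at hand for 35 of the 44 members. The letters GAAANNGAAA, on either strand, were in a window of 24 of these 35 members (68.6%) and in 1255 of all 35116 windows (3.57%). With a C after them (GAAANNGAAAC), they were in windows of 19 members (54.3%) and in 0.795% of all windows. With 3 free bases in place of 2 (GAAANNNGAAA), only 6 members (17.1%) held them, against 2.86% of windows. The shares of members count a gene once over all its windows, and the shares of windows count each window. The 6 stretches printed below show the arrangement in members from different families that the expression results turn on, with the GAAANNGAAA letters, or their opposite strand, in capitals. They are given 5′ to 3′ on the strand of the gene.
ISG15, chr1:1013374-1013403, plus strand, capitals starting 113 bases before the start site: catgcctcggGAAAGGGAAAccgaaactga
IFIT1, chr10:89392497-89392526, plus strand, 116 bases before: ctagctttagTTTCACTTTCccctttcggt
OAS3, chr12:112938321-112938350, plus strand, 143 bases before: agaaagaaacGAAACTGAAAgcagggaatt
BST2, chr19:17405741-17405770, minus strand, 130 bases before: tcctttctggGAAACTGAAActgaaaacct
RSAD2, chr2:6877622-6877651, plus strand, 145 bases before: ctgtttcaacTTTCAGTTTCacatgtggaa
EPSTI1, chr13:42992272-42992301, minus strand, 50 bases before: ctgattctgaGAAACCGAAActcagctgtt

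Windows of the other 11 members, OAS1, CXCL11, CMPK2, DDX58, HERC6, XAF1, SAMD9L, IFI35, STAT2, IRF1 and IRF9, did not hold the GAAANNGAAA letters, which says only that these letters are not in those 300 bases. A match is a description of letters and was not tested for binding. DHX58, IRF7, USP18, IFIT2, MX2, OAS2, OASL, IFITM2 and GBP2 had no window in the table used.

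Library totals ran from 13904974 to 24890797 counts, apart from replicate 4 of OIS with 1903607. HMGA1 and CEBPB followed their labels in every comparison in which they were knocked down. HMGA1 stood at 0.0721 of its Grow level in Grow-shA1, 0.0811 of its OIS level in OIS-shA1 and 0.201 of its H1299 level in H1299-shA1. CEBPB stood at 0.12 and 0.109 of its OIS-v-v level in OIS-shCEBPB and OIS-shCEBPB-shp53. All 6 fibroblast markers were above 1 CPM (a library's count over its scaled total, in the usual CPM unit) in every IMR90 group. Of 5 leukocyte markers, PTPRC, CD3E, CD14 and LYZ were below 1 CPM in every group, and CD68 was not below it in any. Summed over all 5, CD68 included, their levels were 44.4 to 60.8 CPM in OIS-shCEBPB-shp53 and 47.3 to 90.5 CPM in OIS-v-v. In H1299, EPCAM, CDH1 and KRT19 of 5 epithelial markers were below 1 CPM, as were COL1A2, COL3A1, PDGFRB and THY1 of the fibroblast markers. In the second experiment, libraries numbered 1 to 3 and those numbered 4 and 5 stood apart in all 5 groups on the first component of the deviations from group means, which held 34.3% of their variance. The labels give no batch for these numbers and name more than 1 library kit and sequencer without saying which library had which. Results that rest on them are given within the numbers too.

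Levels of the members were spread widely. Per kilobase of exon, the highest in Grow were IFITM3 (110 CPM per kb), an inhibitor of virus entry, and LGALS3BP (61.6), a secreted glycoprotein, followed by ISG15 (36.7), a ubiquitin-like modifier. At the other end stood RSAD2 (0.0625 CPM per kb), OAS1 (0.0472) and IFI44L (0.0181). Of the 44 members, 10 had a mean under 1 CPM in Grow, 12 in OIS, 7 in OIS-v-v, 1 in OIS-shCEBPB-shp53 and 21 in H1299. The median log2 CPM over the 44 members of a library was 2.53 ± 0.13 (SD, n = 8) in Grow, 2.54 ± 0.10 (n = 8) in Grow-shA1, 2.22 ± 0.23 (n = 8) in OIS and 1.98 ± 0.15 (n = 8) in OIS-shA1. In the second experiment it was 2.13 ± 0.43 (n = 5) in Grow-v-v, 2.05 ± 0.21 in OIS-v-v, 2.72 ± 0.19 in OIS-shCEBPB, 3.12 ± 0.17 in OIS-shp53 and 4.18 ± 0.21 in OIS-shCEBPB-shp53. The 5 libraries of OIS-shCEBPB-shp53 spanned 3.92 to 4.46 and lay above all other libraries of that experiment, the next highest of which stood at 3.35. H1299 and H1299-shA1 were at 0.41 ± 0.28 (n = 7) and 0.56 ± 0.23 (n = 6). In bulk RNA, fewer expressing cells and less RNA per cell cannot be told apart.

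**Figure D1:**
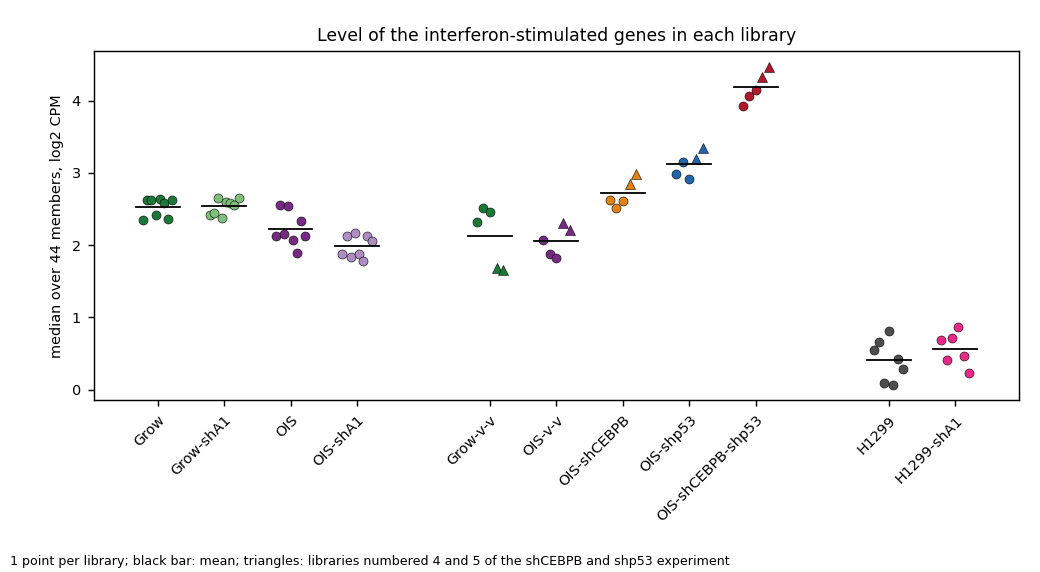
Each point is a library, plotted by group, with the median log2 CPM over the 44 members on the vertical axis and the bars at the group means. The OIS-shCEBPB-shp53 libraries lie between 3.92 and 4.46, above the other groups of their experiment, while H1299 libraries lie lowest.

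Apart from IFNE, one of the type I genes, the ligands themselves were almost absent. Of 21 interferon genes (the type I genes, IFNG and the lambda genes), between 1 and 5 had any count in a group, and 102 to 334 counts per group came from IFNE, an interferon known from the female reproductive tract. IFNB1, the interferon that fibroblasts usually make, had a total of 1 count in each of Grow, OIS and OIS-shCEBPB-shp53, and 0 in the other 8 groups. IFNE totalled 154 counts in Grow, 141 in Grow-shA1, 254 in OIS and 334 in OIS-shA1. In the second experiment IFNE totalled 102 to 140 counts per group, and no test was made of these counts. The lambda genes had 0 counts in every group. The limit that a count of 0 allows (3 counts) was 0.125 to 0.229 CPM per library, and 1.46 CPM in replicate 4 of OIS, and it covers counting error only.

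Senescence moved members in both directions. In the first experiment 38 members passed the count filter, which asks for about 10 counts in as many libraries as the smaller group has. Of these, 11 rose and 17 fell in OIS against Grow at an adjusted p under 0.05, where 38.8% of all 13304 genes tested rose and 35.9% fell. The members' median log2 fold change was -0.14, and that of all genes 0.03. CMPK2, ISG20 and IFI27 passed mainly through the higher group, and of the other 35 members 9 rose and 16 fell.

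The 2 groups did not overlap for 4 members that were higher in OIS (19.8% of all genes) and 11 that were lower (23.9%). Scaling by library sizes alone moved the all-gene median to 0.22 and the members' median to 0.05, and no call changed its direction. The falls were led by IFIT1, GBP2 and IFIT2. IFIT1 binds viral RNA that lacks a host cap. Its level in Grow ran from 4.67 to 7.71 CPM (median 5.85) and in OIS from 0 to 1.33 (median 0.744), so the groups did not overlap. The log2 fold change was -2.87 ± 0.21 (SE; adjusted p = 5.22e-13). GBP2, a GTPase that attacks the vacuoles of microbes, ran from 9.46 to 15.4 CPM (median 13.9) in Grow and from 2.03 to 3.9 (median 2.33) in OIS, again with no overlap (log2 -2.41 ± 0.13, adjusted p = 2.43e-16). IFIT2 ran from 4.66 to 7.62 CPM (median 5.79) in Grow and from 0.791 to 2.92 (median 1.72) in OIS (-1.97 ± 0.17, adjusted p = 3.51e-11).

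The strongest rises among members at 1 CPM or more were smaller. IRF7, a transcription factor that amplifies interferon production, went from 2.15 to 3.72 CPM (median 3.03) in Grow to 0.975 to 6.58 (median 5.58) in OIS, a log2 change of 0.87 ± 0.15 (adjusted p = 6.88e-06). Its lowest OIS value belonged to the shallow replicate 4, below every Grow library. IFI35, a partner of interferon-induced signalling proteins, rose with no overlap from 8.35 to 12.2 CPM (median 10.3) to 15.1 to 21.2 (median 17.5), by 0.83 ± 0.09 on the log2 scale (adjusted p = 9.9e-10). HERC5, the ligase that attaches ISG15 to proteins, overlapped between groups and rose from a median of 1.58 to 2.25 CPM (0.62 ± 0.17, adjusted p = 0.00175). Below 1 CPM on average, CMPK2, a mitochondrial nucleotide kinase, rose by 2.12 ± 0.26 (adjusted p = 2.35e-08) from a highest Grow value of 0.73 CPM to a lowest OIS value of 1.09.

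By family, members moved as follows. All 3 tested IFITM genes fell (log2 -0.85 to -0.53), with no overlap between groups. GBP1 and GBP2 fell, as did IFIT1, IFIT2 and IFIT5 of 4 IFIT genes, with IFIT3 at -0.07 ± 0.09. OAS2 and OAS3 fell and OASL stood at -0.53 ± 0.26 (adjusted p = 0.067). MX1 fell by 0.82 and the related antiviral genes SAMD9 and SAMD9L fell by 1.51 and 0.96 on the log2 scale. Of the signal transducers, STAT2 (0.52), IRF1 (0.46) and IRF7 rose, and IRF9, which shares 51.5% of its exon bases with another gene, stood at 0.17 ± 0.26. ISG20, PARP14, CXCL10 and LGALS3BP rose by 1.22, 0.24, 0.37 and 0.45, and the RNA sensor IFIH1 by 0.38. EPSTI1, IFI6, IFI27 and IFI44 fell. DDX58, DHX58, ISG15, USP18, HERC6, PARP9 and XAF1 lay between -0.15 and 0.21 and did not pass the test, and MX2, OAS1, BST2, RSAD2, CXCL11 and IFI44L were too low to be tested.

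**Figure D2:**
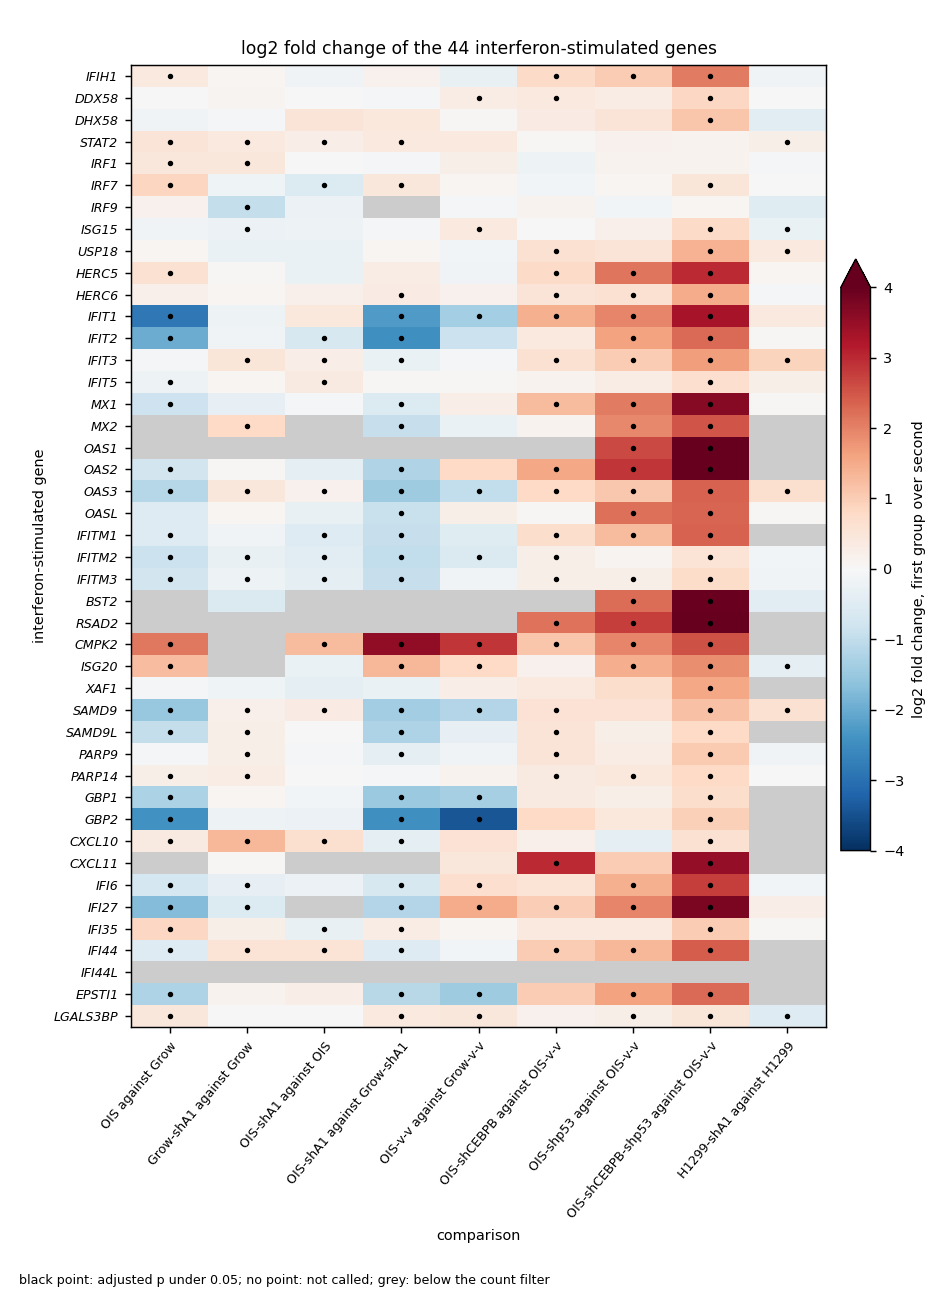
Each row is a member and each column a comparison, with colour for the log2 fold change (red higher, blue lower in the first group named), a dot for an adjusted p under 0.05 and grey where the member did not pass the count filter. Rises fill the OIS-shCEBPB-shp53 column (40 of 43 tested), whereas OIS against Grow holds 11 rises and 17 falls.

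The same contrast in the second experiment shared no library with the first. In OIS-v-v against Grow-v-v, 40 members passed the filter, 7 rose (22.7% of all genes did) and 7 fell (23.2%), with a median of 0.05 against 0.01 for all genes. Without overlap, 3 members were higher (17% of all genes) and 6 lower (18%). CMPK2, OAS2 and CXCL11 passed mainly through the higher group, and of the other 37 members 6 rose and 7 fell. Of 38 members tested in both experiments, 12 passed the test in both, and 10 of the 12 moved the same way. The same count over all genes is not given here, so these numbers are not read against a background. CMPK2, ISG20 and LGALS3BP rose in both, and IFIT1, OAS3, IFITM2, SAMD9, GBP1, GBP2 and EPSTI1 fell in both. Of these falls, those of IFIT1, GBP1 and EPSTI1 were not called in libraries numbered 4 and 5 alone of the second experiment. In the first experiment CMPK2 and ISG20 passed the filter mainly through OIS, where they had to be high. IFI27 passed it there mainly through Grow, where it had to be high. IFI6, a mitochondrial survival protein, and IFI27 fell in the first (log2 -0.71 and -1.72) and rose in the second (0.66 and 1.49). The rises of both were not called in libraries numbered 4 and 5 alone.

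GBP2 read 13.5, 14.2, 16, 9.28 and 6.45 CPM in Grow-v-v replicates 1 to 5 and 0.731, 1.13, 0.468, 1.63 and 1.51 in OIS-v-v. All OIS-v-v libraries were lower, by 3.43 ± 0.33 on the log2 scale (adjusted p = 3.84e-06). CMPK2 went the other way in all libraries, from 0.501, 0.357, 0.276, 0.0682 and 0.21 CPM to 1.74, 2.44, 2.11, 2.5 and 2.05 (2.85 ± 0.31, adjusted p = 1.11e-05). IFI27 rose without overlap from 0.902, 0.715, 0.827, 1.02 and 0.982 CPM to 2.64, 2.91, 3.57, 1.52 and 1.87 (1.49 ± 0.25, adjusted p = 0.000377). EPSTI1 fell from 2.35, 2.98, 1.93, 1.64 and 2.52 CPM to 0.562, 0.892, 0.176, 1.36 and 1.21 (-1.43 ± 0.36, adjusted p = 0.00624). For IFIT1 the groups overlapped. It read 4.91, 5.06, 5.07, 2.46 and 1.89 CPM in Grow-v-v and 1.12, 0.951, 1.11, 2.44 and 1.87 in OIS-v-v (-1.37 ± 0.34, adjusted p = 0.00518), and replicates 4 and 5 were nearly equal in both groups. ISG20, a nuclease for single-stranded RNA, went from 1.4, 1.19, 1.71, 1.64 and 2.31 CPM to 1.91, 2.26, 2.22, 4.02 and 3.74 (0.79 ± 0.26, adjusted p = 0.024), and this call was lost without any of Grow-v-v replicates 1 and 2 and OIS-v-v replicates 4 and 5, with adjusted p between 0.0573 and 0.0653.

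The change of the members with OIS differed in sign between the library numbers in this experiment. The split into numbers 1 to 3 and 4 and 5 was chosen after seeing the data, and the difference between them was not tested. In the second part each group holds only libraries 4 and 5. The median difference between OIS-v-v and Grow-v-v libraries of one number was -0.30, -0.32 and -0.38 for numbers 1 to 3 and 0.56 and 0.53 for numbers 4 and 5. With the number as a block, 6 members rose and 7 fell (24.8% and 24.9% of all genes). In numbers 1 to 3 alone, 6 members rose and 21 fell (33% and 33.8% of all genes), with a median of -0.30. In numbers 4 and 5 alone, 18 rose and 4 fell (20.2% and 20.3% of all genes), with a median of 0.57. Of 38 members tested in both, 8 passed in the same direction (ISG15, OAS3, IFITM2, CMPK2, ISG20, SAMD9, GBP2 and LGALS3BP). Another 7 passed in opposite directions, and the count of such genes over all genes is not given here. The 7 members, IFIT2, IFIT3, IFIT5, OASL, XAF1, PARP14 and IFI35, were lower in OIS-v-v in numbers 1 to 3 and higher in numbers 4 and 5. OASL, a relative of the OAS enzymes that helps the sensor RIG-I, changed by -0.77 ± 0.26 (adjusted p = 0.0114) in the one and by 2.50 ± 0.48 (adjusted p = 0.000662) in the other. What separates the numbers is not given in the labels and its part in these values was not tested.

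Knock-down of HMGA1 also moved members in both directions. In Grow-shA1 against Grow, 39 members passed the filter, 11 rose (14.8% of all genes did) and 6 fell (15.1%), with a median of 0.05 against 0.01 for all genes. Without overlap, 4 members were higher (3.44% of all genes) and 0 lower (4.21%). CXCL10, a chemokine that draws T cells, had the largest change. It ran from 9.33 to 18.9 CPM (median 14.5) in Grow and from 20.1 to 46.5 (median 39.4) in Grow-shA1, without overlap (1.33 ± 0.14, adjusted p = 2.86e-08). IFI44 ran from 6.09 to 9.48 CPM (median 7.54) in Grow and from 9.51 to 15.2 (median 10.9) in Grow-shA1, so the groups lay next to each other without overlap (0.56 ± 0.10, adjusted p = 7.3e-05). IFIT3, a scaffold for IFIT1, overlapped, with medians of 19.7 and 27.8 CPM (0.47 ± 0.08, adjusted p = 7.28e-05). STAT2 and IRF1 rose without overlap by 0.38 and 0.46 on the log2 scale. Also higher were OAS3 (0.44), PARP14 (0.30), PARP9 (0.24), SAMD9L (0.24), SAMD9 (0.19) and MX2 (0.79). Of these calls, that of PARP9 was lost without 11 of the 16 libraries taken singly, that of MX2 without 8, and those of SAMD9 and SAMD9L without 5 each.

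The falls in Grow-shA1 had overlapping groups. IFI27, a mitochondrial protein, fell from a median of 1.55 to 1.05 CPM (-0.55 ± 0.20, adjusted p = 0.0383), a call that was lost without 10 of the 16 libraries taken singly. IFI6 fell from 11.4 to 8.73 CPM in the median (-0.34 ± 0.09, adjusted p = 0.00569) and IFITM2 from 38.2 to 31.1 (-0.29 ± 0.07, adjusted p = 0.00329), with overlapping groups in both cases. IFITM3 (-0.21) and ISG15 (-0.24) were lower too. IRF9 had the largest fall (-0.95 ± 0.29, adjusted p = 0.0134), from a mean of 0.861 to 0.439 CPM, and passed the filter through Grow alone, where it had to be higher. The other 22 members tested lay between -0.59 and 0.22 and did not pass the test.

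In OIS-shA1 against OIS, 37 members passed the filter, 8 rose (18.8% of all genes) and 6 fell (17.1%), with a median of -0.05 against 0 for all genes. With library sizes alone the split was 6 to 9, and of all 13327 genes 1553 were higher and 4037 lower. Without overlap, 3 members were higher (5.18% of all genes) and 2 lower (3.98%). CMPK2 went from 1.09 to 2.28 CPM (median 1.5) in OIS to 2.75 to 5.48 (median 4.13) in OIS-shA1, with no overlap (1.28 ± 0.18, adjusted p = 1.62e-06). CXCL10 also separated the groups, with 14.9 to 23.4 CPM (median 18.3) in OIS and 24.3 to 35.4 (median 27.2) in OIS-shA1 (0.63 ± 0.09, adjusted p = 2.25e-06). IFI44 rose from a median of 5.44 to 7.8 CPM (0.56 ± 0.10, adjusted p = 7.53e-05) and the groups overlapped narrowly. IFIT5 (0.36), SAMD9 (0.34), IFIT3 (0.28), STAT2 (0.27) and OAS3 (0.18) rose as well, with IFIT3 and OAS3 not called under library sizes alone.

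The 3 IFITM genes tested fell together in OIS-shA1. IFITM1 fell from a median of 3.03 to 2.27 CPM (-0.51 ± 0.17, adjusted p = 0.0182), and IFITM2 and IFITM3 fell by 0.41 and 0.39 without overlap. IFITM1 and IFITM2 share exon bases (32.4% and 26.8% of theirs), so their counts cannot be fully separated. IRF7 fell from a median of 5.58 to 3.73 CPM (-0.56 ± 0.15, adjusted p = 0.00435) and IFI35 by 0.30. IFIT2 fell from 1.72 to 0.983 CPM in the median (-0.63 ± 0.22, adjusted p = 0.0245), a call that was lost without OIS replicate 1, 6 or 7 (adjusted p 0.0554 to 0.0564). The other 23 members tested lay between -0.38 and 0.50.

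**Figure D3:**
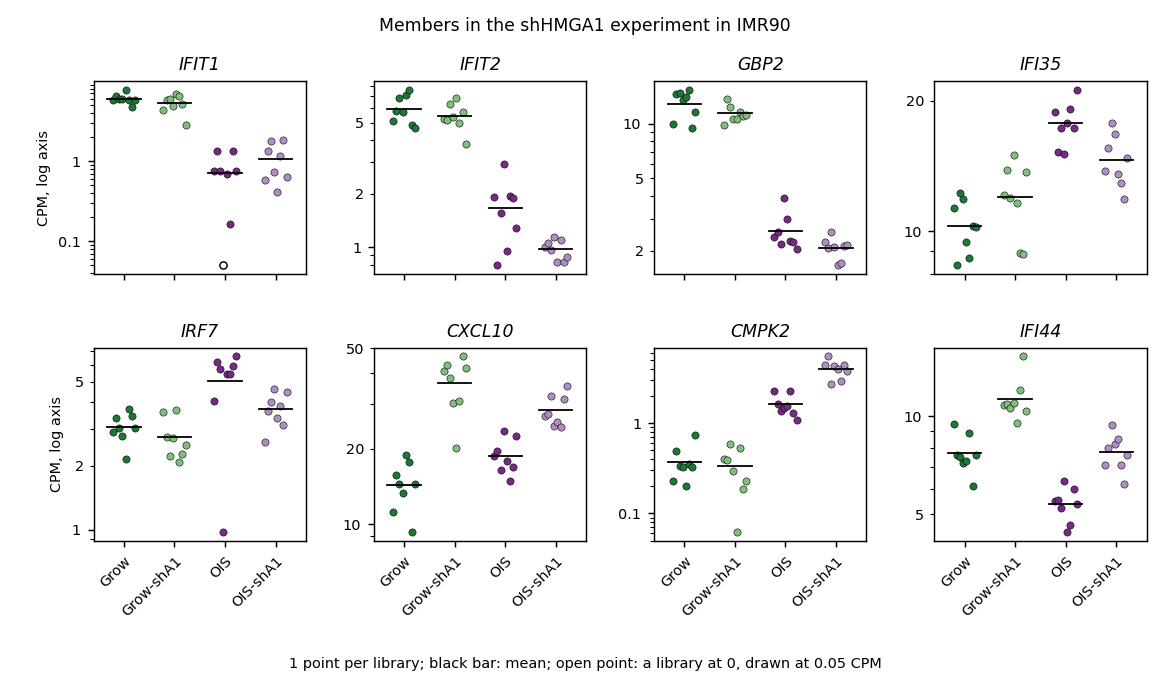
Points are libraries of the 4 groups of the first experiment (8 each), with CPM on a log axis, bars at group means and open points for values of 0, for members named in the HMGA1 comparisons. CXCL10 lies higher with shA1 in both states, CMPK2 is higher in OIS-shA1 than in OIS, and IFIT1 and GBP2 drop from Grow to OIS with and without shA1.

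Senescence in HMGA1-depleted cells lowered more members than it raised. In OIS-shA1 against Grow-shA1, 38 members passed the filter, 7 rose (37.1% of all genes) and 21 fell (36%), with a median of -0.36 against 0.02 for all genes. Without overlap, 3 members were higher (20.4% of all genes) and 13 lower (23%). CMPK2, ISG20 and IFI27 passed mainly through the higher group, and of the other 35 members 5 rose and 20 fell. For CMPK2 that group was OIS-shA1, where it had to be high. CMPK2 ran from 0.0622 to 0.585 CPM (median 0.343) in Grow-shA1 and from 2.75 to 5.48 (median 4.13) in OIS-shA1 (3.54 ± 0.24, adjusted p = 4.81e-13), the largest rise among the members tested. IRF7 (0.45) and LGALS3BP (0.39) rose with overlapping groups. IFIT2 ran from 3.81 to 6.84 CPM (median 5.31) to 0.827 to 1.14 (median 0.983), a fall of all libraries (-2.46 ± 0.15, adjusted p = 2.29e-14). GBP2 (-2.45 ± 0.10) and IFIT1 (-2.27 ± 0.23) also fell without overlap, and so did SAMD9L, which restrains cell growth, by 1.24 ± 0.09. CXCL10, which rose in OIS against Grow (0.37), fell here (-0.35 ± 0.12, adjusted p = 0.00983). IFIH1, IRF1, HERC5 and PARP14, which rose in OIS against Grow, stood at 0.16, -0.05, 0.29 and -0.07 and did not pass.

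Whether the effect of shA1 differed between Grow and OIS was tested by the interaction term over 41 members. For 2 members the shA1 effect was higher in OIS (12.2% of all genes) and for 5 lower (11.4%). With library sizes alone the split was 1 to 10, and over all 13903 genes it shifted too, to 888 higher and 3456 lower. CMPK2 had the largest positive term (1.44 ± 0.39, adjusted p = 0.00562) and medians of 0.33 CPM in Grow and 0.343 in Grow-shA1, where it was too low to be tested alone. IFIT5 had a term of 0.27 ± 0.09 (adjusted p = 0.021), which was 0.16 and not called under library sizes alone. For CXCL10 the term was -0.70 ± 0.18 (adjusted p = 0.00292), for IFI35 -0.52 ± 0.14 (adjusted p = 0.00498) and for IRF1, a transcription factor that binds many interferon-stimulated promoters, -0.49 ± 0.08 (adjusted p = 1.21e-05). IRF1 was at a median of 62.4 CPM in Grow, 86 in Grow-shA1, 85.7 in OIS and 79.7 in OIS-shA1. PARP14 (-0.29) and OAS3 (-0.26) were the remaining calls. These 5 comparisons share libraries, so their calls are not independent of each other.

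In OIS-shCEBPB-shp53 cells, which carry both knock-downs, nearly all members rose. The comparisons with shCEBPB, with shp53 and with both share the 5 OIS-v-v libraries, and their values are set side by side here. Single knock-down of CEBPB raised 22 of 41 members tested (9.09% of all genes rose), with a median of 0.50. The single knock-down in OIS-shp53 raised 24 of 43 (2.47% of all genes), with a median of 0.69. The double knock-down raised 40 of 43 (17.1% of all genes), with a median of 1.56. The median over all genes was 0 or close to it in each, as TMM scaling makes it.

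By the edgeR test 0 members were lower in each of these 3 comparisons (8%, 1.97% and 16.5% of all genes were). At an unadjusted p under 0.05, 1 member was lower in OIS-shCEBPB, 1 in OIS-shp53 and 0 in OIS-shCEBPB-shp53, and with DESeq2 the calls lower were 1, 0 and 0. Every library of the knock-down group lay above every OIS-v-v library for 18 members in OIS-shCEBPB (7.7% of all genes), 23 in OIS-shp53 (3.89%) and 38 in OIS-shCEBPB-shp53 (13%). The opposite held for 1 member, IRF1, in OIS-shCEBPB (7.33%), and for 0 in the others (3.48% and 11.5%). OAS1, BST2 and RSAD2 passed the filter through the knock-down groups alone, where they had to be high. Without them 37 of 40 members rose in OIS-shCEBPB-shp53, 21 of 40 in OIS-shp53 and, without RSAD2, 21 of 40 in OIS-shCEBPB. With the library number as a block, 28 members rose and 1 fell in OIS-shCEBPB, 37 rose and 1 fell in OIS-shp53, and 40 rose in OIS-shCEBPB-shp53 (16.9%, 12% and 21.9% of all genes rose, and 15%, 10.7% and 21.4% fell). The falls under the block were IRF1 in OIS-shCEBPB and CXCL10 in OIS-shp53.

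**Figure D4:**
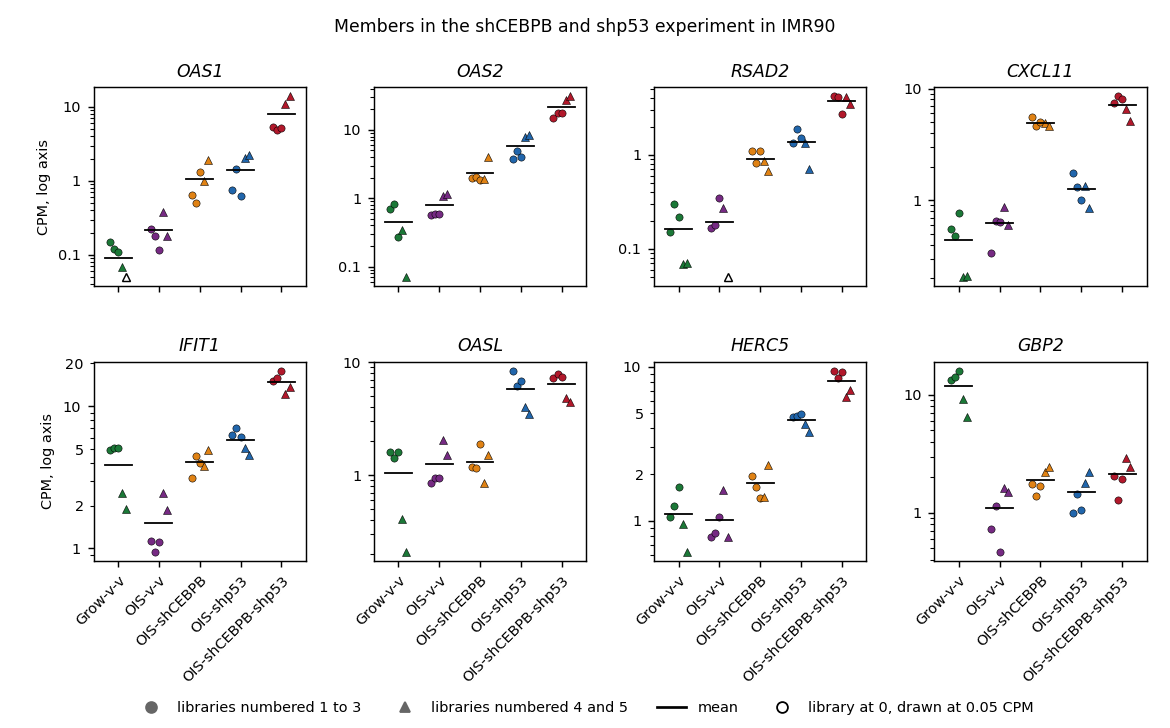
Points are libraries of the 5 groups of the second experiment (5 each), with CPM on a log axis, bars at group means, triangles for libraries numbered 4 and 5 and open points for values of 0. OAS1, OAS2 and RSAD2 step up through the single knock-downs to the double, CXCL11 is higher with shCEBPB, OASL and HERC5 are higher with shp53, and GBP2 in every OIS group lies below its lowest Grow-v-v library (6.45 CPM).

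The OAS enzymes, which make the 2′-5′ oligoadenylates that switch on RNase L, all rose in the double knock-down. Among the members tested there, OAS1 and OAS2 had the largest changes, but OAS1 passed the filter through that group alone and had to be high in it. OAS1, OAS2 and OAS3 lie next to each other on chromosome 12 (hg19; OAS1 at 113344582 to 113369990, OAS3 at 113376157 to 113411054 and OAS2 at 113416200 to 113449528). OAS1 read 0.225, 0.178, 0.117, 0.38 and 0.181 CPM in OIS-v-v replicates 1 to 5, and 5.4, 4.89, 5.25, 11.1 and 13.9 in OIS-shCEBPB-shp53. The groups lay far apart, with numbers 4 and 5 highest in the double knock-down (log2 5.16 ± 0.45, adjusted p = 4.17e-06). OAS2 read 0.562, 0.594, 0.585, 1.09 and 1.15 CPM in OIS-v-v and 15.1, 17.8, 17.8, 27 and 30.9 in the double knock-down (4.76 ± 0.28, adjusted p = 1.65e-07).

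In the single knock-downs OAS2 read 1.95, 2.03, 1.83, 1.94 and 4.05 CPM with shCEBPB (1.55 ± 0.30, adjusted p = 0.00384) and 3.72, 4.93, 4.05, 7.98 and 8.37 with shp53 (2.85 ± 0.32, adjusted p = 0.000414). Each group lay above OIS-v-v, and replicate 5 with shCEBPB lay within the range of the shp53 libraries. OAS3 rose by 0.81, 1.09 and 2.37 in OIS-shCEBPB, OIS-shp53 and the double knock-down, of which the first call was lost without 6 of the 10 libraries taken singly. OASL was called with shp53 and not with shCEBPB. It read 0.843, 0.951, 0.936, 2.06 and 1.51 CPM in OIS-v-v, 1.17, 1.15, 1.88, 0.851 and 1.52 with shCEBPB (0.06 ± 0.30, adjusted p = 0.929), 8.39, 6.2, 6.79, 3.99 and 3.44 with shp53 (2.19 ± 0.31, adjusted p = 0.002) and 7.31, 7.92, 7.41, 4.82 and 4.42 with both (2.33 ± 0.26, adjusted p = 3.59e-05). The shCEBPB libraries overlapped OIS-v-v, while every shp53 and double knock-down library lay above it.

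RSAD2, which encodes viperin, an enzyme that makes a chain-terminating nucleotide, was near the limit of detection in OIS-v-v. RSAD2 passed the filter through the knock-down groups alone, where it had to be high. It read 0.169, 0.178, 0.351, 0.272 and 0 CPM there and 4.18, 4.1, 2.69, 4.14 and 3.46 in OIS-shCEBPB-shp53 (4.20 ± 0.34, adjusted p = 2.42e-06). All double knock-down libraries were above all OIS-v-v libraries, and both single knock-downs lay between (2.18 and 2.76 on the log2 scale). Its neighbour in function, CMPK2, read 1.74, 2.44, 2.11, 2.5 and 2.05 CPM in OIS-v-v, 3.78, 4.65, 4.71, 4.44 and 5.63 with shCEBPB, 9.44, 9.32, 9.37, 6.88 and 6.95 with shp53 and 10.6, 11.7, 10, 14.2 and 17.1 with both. The 4 groups did not overlap, and the log2 changes were 1.10, 1.95 and 2.55.

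Of the chemokines, CXCL11 was called with shCEBPB, and with shp53 only in some fits. It read 0.337, 0.654, 0.644, 0.869 and 0.603 CPM in OIS-v-v and 5.54, 4.65, 5.02, 4.96 and 4.62 in OIS-shCEBPB (2.98 ± 0.19, adjusted p = 7.78e-07), with 1.75, 1.32, 1, 1.35 and 0.844 in OIS-shp53 (1.02 ± 0.27, adjusted p = 0.0583, and 0.0201 with the library number as a block) and 7.36, 8.51, 8.12, 6.55 and 5.14 in the double knock-down (3.50 ± 0.22, adjusted p = 2.72e-07). The shCEBPB libraries lay above both OIS-v-v and OIS-shp53, and all but 1 OIS-shp53 library lay above OIS-v-v. CXCL10 stood at 0.19 ± 0.18 with shCEBPB, -0.36 ± 0.15 with shp53 and rose by 0.60 ± 0.16 with both (adjusted p = 0.0121), with overlapping groups. The CXCL10 call with both was lost with all groups in 1 fit and in libraries numbered 4 and 5 alone.

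The IFIT genes lie in a cluster on chromosome 10 (hg19; IFIT2 at 91061712 to 91069033, IFIT3 at 91087651 to 91100728, IFIT1 at 91152303 to 91163745 and IFIT5 at 91174343 to 91178576). IFIT1 read 1.12, 0.951, 1.11, 2.44 and 1.87 CPM in OIS-v-v, 3.13, 4.46, 4.01, 3.78 and 4.9 with shCEBPB (1.43 ± 0.25, adjusted p = 0.00166), 6.26, 6.98, 6.05, 5.05 and 4.54 with shp53 (1.94 ± 0.24) and 15.1, 15.7, 17.7, 12.1 and 13.6 with both (3.29 ± 0.22, adjusted p = 4.22e-07). All 3 knock-down groups lay above OIS-v-v, and the double lay above both singles. In OIS-shCEBPB-shp53 IFIT2, IFIT3 and IFIT5 rose by 2.26, 1.67 and 0.68. IFIT2 and IFIT5 did not pass with shCEBPB alone (0.39 and 0.14), nor IFIT5 with shp53 alone (0.29).

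HERC5 read 0.787, 0.832, 1.05, 1.58 and 0.784 CPM in OIS-v-v, 1.95, 1.66, 1.4, 1.42 and 2.31 with shCEBPB, 4.72, 4.81, 4.95, 4.23 and 3.77 with shp53 (2.15 ± 0.20, adjusted p = 0.000108) and 9.43, 8.46, 9.28, 6.39 and 7.05 with both (2.99 ± 0.20, adjusted p = 4.93e-07). The shCEBPB libraries overlapped OIS-v-v through replicate 4 of OIS-v-v (0.77 ± 0.24, adjusted p = 0.0452), and the other 2 groups did not. That call was lost without 8 of the 10 libraries taken singly (adjusted p up to 0.107). ISG15 itself, the modifier that HERC5 attaches, rose in the double knock-down (0.77 ± 0.12, adjusted p = 0.000512) and stood at 0.02 ± 0.10 with shCEBPB and 0.21 ± 0.09 with shp53, where it passed with the library number as a block (adjusted p = 0.0278). USP18, which removes ISG15 and dampens the receptor, rose by 0.62 with shCEBPB and 1.38 with both, and HERC6 by 0.50, 0.62 and 1.48 with shCEBPB, shp53 and both. With shp53 the HERC6 call was lost without 7 of the 10 libraries taken singly (adjusted p 0.0685 to 0.117), with library sizes alone, without a filter and with all groups in 1 fit, and USP18 passed under the block (0.47 ± 0.15, adjusted p = 0.0432). With shCEBPB the HERC6 call was lost with all groups in 1 fit and in numbers 4 and 5 alone.

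The MX genes, BST2 and the IFITM genes rose with both knock-downs as well. MX1, a GTPase that traps viral capsids, rose by 1.26, 2.09 and 3.64 on the log2 scale with shCEBPB, shp53 and both. MX2 stood at 0.13 ± 0.50 with shCEBPB and rose by 1.91 and 2.51 in the others. BST2, a tether that holds virus particles at the cell surface, rose by 3.94 with both, from at most 0.468 CPM to at least 2.29. BST2 passed the filter through the knock-down group alone, where it had to be high. IFITM1 rose by 0.69, 1.27 and 2.36 and IFITM3, the most abundant member per kilobase, by 0.22, 0.22 and 0.74. IFITM2 stood at 0.11 ± 0.07 with shp53 and rose by 0.22 and 0.56 in the others.

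The remaining members rose in the double knock-down too. IFI27 rose by 3.75 ± 0.23 and IFI6 by 2.75 ± 0.16, followed by IFI44 (2.41), EPSTI1 (2.27), IFI35 (1.99-fold on the linear scale) and LGALS3BP (0.49). IFI6 read 24.5, 23.9, 28.1, 13.6 and 19.8 CPM in OIS-v-v and 139, 131, 157, 136 and 175 in the double knock-down, so it became the second most abundant member per kilobase. The RNA sensors IFIH1 (2.07), DHX58 (1.11) and DDX58 (0.84), which encodes RIG-I, all rose. ISG20 (1.87), XAF1 (1.56), SAMD9 (1.17), SAMD9L (0.81), PARP9 (1.04), PARP14 (0.80), GBP1 (0.71) and GBP2 (0.95) rose with them. The GBP2 call was lost without 7 of the 10 libraries taken singly (adjusted p 0.0517 to 0.0868). GBP2 had fallen most in OIS-v-v, and at 1.28 to 2.93 CPM in the double knock-down it remained below its lowest Grow-v-v library (6.45). IFI44L was not tested.

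The 3 members that did not pass in the double knock-down were STAT2, IRF1 and IRF9. STAT2 read 87.1, 92, 85.7, 92.7 and 93.6 CPM in OIS-v-v and 107, 94.5, 104, 100 and 93.5 in OIS-shCEBPB-shp53 (0.14 ± 0.05, adjusted p = 0.0508). IRF1 read 71.9, 67.3, 70, 77.8 and 83.1 CPM and then 90.5, 88.6, 87.4, 73 and 66.3 (0.13 ± 0.09, adjusted p = 0.3), with numbers 1 to 3 higher and numbers 4 and 5 lower in the double knock-down. IRF9, at 0.618 to 1.33 CPM in OIS-v-v, stood at 0.07 ± 0.24. IRF7, a further transcription factor of the pathway, rose by 0.49 ± 0.11 (adjusted p = 0.00579), but did not pass in numbers 4 and 5 alone. STAT2 lay near the threshold and was called higher with DESeq2, upper-quartile factors, library sizes alone, at least 10 counts in every library and numbers 1 to 3 alone.

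Within the library numbers, the rise in OIS-shCEBPB-shp53 was present on both sides. The median difference from the OIS-v-v library of the same number was 1.82, 1.67 and 1.98 for numbers 1 to 3 and 1.12 and 1.28 for numbers 4 and 5, and between 40 and 43 of the 43 members were higher in each pair. For OIS-shp53 the 5 medians ran from 0.60 to 0.85, and for OIS-shCEBPB from 0.23 to 0.62, with the lowest in number 4 in both.

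Whether the double knock-down differed from the sum of the single ones was tested by the interaction of shCEBPB with shp53 over 43 members. With edgeR 0 members passed (0.0216% of all genes passed in each direction), 7 were higher and 1 lower at an unadjusted p under 0.05, and DESeq2 called 1. The median interaction was 0.23. With the library number as a block, 3 members passed (0.231% of all genes passed higher), namely ISG15 (0.53, adjusted p = 0.00449), IFITM3 (0.31, adjusted p = 0.00842) and IFI6 (0.80, adjusted p = 0.0229), all with a rise in the double knock-down above the sum. In numbers 1 to 3 alone, 7 members passed higher and 1, CMPK2, lower (1.43% and 1.89% of all genes), and in numbers 4 and 5 alone ISG15 and OAS3 passed higher (0.825% of all genes). IFI6 had a term of 1.24 ± 0.12 in numbers 1 to 3 and 0.06 ± 0.21 in numbers 4 and 5. A p above the threshold does not show that the effects simply add.

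Other genes of the pathway came from a list of 29, of which 24 passed the filter in each comparison. In OIS-shCEBPB-shp53 8 of the 24 rose and 1 fell (17.1% and 16.5% of all genes). TMEM173, which encodes the DNA-sensing adaptor STING, rose by 1.15 ± 0.06 (adjusted p = 5.85e-08) and SAMHD1, a nucleotide hydrolase, by 1.08 ± 0.09 (adjusted p = 2.97e-06). SOCS3, an inhibitor of cytokine receptors, fell by 1.09 ± 0.07 (adjusted p = 3.47e-07), and the inhibitor SOCS1 rose by 0.85 ± 0.21. In OIS against Grow 11 of 24 rose and 9 fell (38.8% and 35.9% of all genes), and in OIS-v-v against Grow-v-v 8 rose and 3 fell (22.7% and 23.2%). IFI16, a nuclear DNA sensor, rose by 1.78 and 1.28 in the 2 experiments, while SOCS1 fell by 1.74 and 1.87. Of the 24, 6 were higher and 4 lower in Grow-shA1 (14.8% and 15.1% of all genes), and 3 and 5 in OIS-shA1 against OIS (18.8% and 17.1%). In OIS-shCEBPB 4 were higher and 2 lower (9.09% and 8%), in OIS-shp53 2 and 1 (2.47% and 1.97%) and in H1299-shA1 5 and 4 (8.65% and 6.93%).

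H1299 cells expressed fewer of the members. In each group 20 or 21 members had a mean under 1 CPM, and MX2, IFI44L and EPSTI1 had no count in any of the 7 H1299 libraries. Of 29 members tested in H1299-shA1 against H1299, 5 rose (8.65% of all genes) and 3 fell (6.93%), with a median of 0.01 against 0 for all genes. OAS3 ran from 18.2 to 23.2 CPM (median 20.5) in H1299 and from 24.2 to 34.4 (median 33.7) in H1299-shA1, without overlap (0.63 ± 0.08, adjusted p = 1.64e-05). STAT2, with 28.2 to 33.7 CPM and 34.4 to 39.6, was the other member to separate the groups, where 2.61% of all genes lay higher and 2.59% lower without overlap (0.24 ± 0.05, adjusted p = 0.00301).

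The other calls in H1299 were on lower or overlapping values. IFIT3 rose from a median of 0.655 to 1.3 CPM (0.89 ± 0.23, adjusted p = 0.0111), SAMD9 from 0.866 to 1.32 (0.60 ± 0.17, adjusted p = 0.0238) and USP18 by 0.39 ± 0.12. The SAMD9 call was lost without H1299-shA1 replicate 4 or 5 (adjusted p 0.0539 and 0.0654), and the USP18 call without 6 of the 13 libraries taken singly (adjusted p 0.0539 to 0.0741). LGALS3BP fell from 2.77 to 1.93 CPM in the median (-0.52 ± 0.13, adjusted p = 0.0104), ISG20 from 4.39 to 3.4 (-0.40 ± 0.10, adjusted p = 0.0128) and ISG15 from 22.5 to 19 (-0.28 ± 0.07, adjusted p = 0.0115). CXCL10, which rose with shA1 in both IMR90 states, had no count in any H1299-shA1 library and at most 0.0915 CPM in H1299. Whether the shA1 effect differed between the cell lines was not tested, since the tables were normalised separately.

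**Figure D5:**
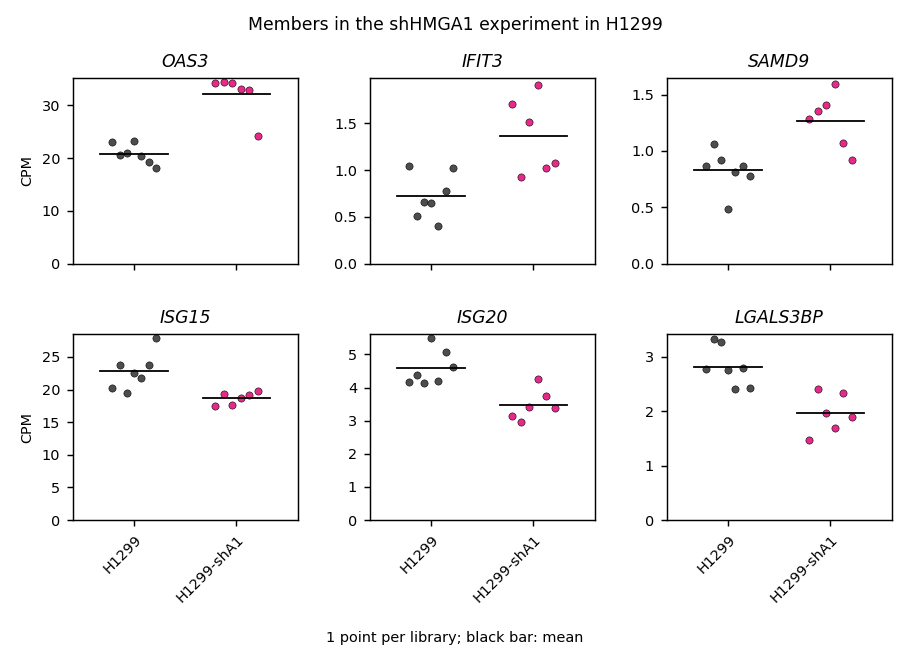
Points are libraries of H1299 (7) and H1299-shA1 (6), with CPM on linear axes that start at 0 and bars at group means, for the 3 strongest rises and falls. OAS3 separates the groups, while IFIT3, SAMD9, LGALS3BP, ISG20 and ISG15 overlap.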

How the data were processed

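Poly(A) RNA was sequenced from 70 libraries in 11 groups. The authors aligned reads with STAR to hg19 and counted them per gene with featureCounts (1.5.2 in the file headers) without strand, and deposited raw counts in 3 tables, 1 for each experiment. Of 44503 gene identifiers 95.9% had a symbol in the annotation used. Total counts were 1903607 to 24890797 per library.

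Each comparison was fitted over its 2 groups in edgeR 4.0.16 (R 4.3.3) with TMM factors, filterByExpr (minimum count 10) and the quasi-likelihood test, with Benjamini-Hochberg adjustment over all genes tested and a threshold of 0.05. Both interactions used their 4 groups. SE is the size of the log2 change divided by the square root of the F statistic. CPM divides counts by the library total times its TMM factor, taken over all libraries of a table. Fits were tested on simulated data. The level of 1 of the knocked-down genes is not reported here. Members, lists and tests were chosen with earlier results of these data known. Members at 1 CPM or more with the 3 largest called changes in each direction of a comparison were named with full statistics, and others were named by role or after their values were seen.

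In the second experiment each pair of same-numbered libraries had correlated deviations from the group means (0.14 to 0.58). The library of the same number was the best match in only 2 or 3 of 5 pairs per comparison. Pairing by single number was therefore not shown there, and numbers 1 to 3 stood apart from 4 and 5. Library numbers did not pair the samples in the first experiment (-0.14 to 0.16) or in H1299 (-0.13 to 0.27). No libraries agreed within counting noise. Alternatives were DESeq2 1.42.0, other scalings, filters and thresholds, a replicate block, all groups in 1 fit, each library left out and, chosen after seeing the data, libraries numbered 1 to 3 or 4 and 5 only. Promoter windows came from RefSeq (GRCh38.p14) and were not combined with hg19 positions.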

Additional observations from a re-analysis of the deposited data

Results flagged for a closer look

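A single library stood apart in 4 of 82 sets of values examined, each set being a named member in a group of 4 to 10 libraries, and chance alone sets apart about 1 in 20. IRF7 was at 0.975 CPM in replicate 4 of OIS, the shallow library, against 4.07 to 6.58 in the others. IFI44 was at 15.2 CPM in replicate 7 of Grow-shA1, against 9.51 to 12. OAS2 was at 4.05 CPM in replicate 5 of OIS-shCEBPB, against 1.83 to 2.03. OAS3 was at 24.2 CPM in replicate 7 of H1299-shA1, against 32.8 to 34.4.

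The effect of shA1 differed between Grow and OIS, by the interaction term of the edgeR fit, for 7 members. It was higher in OIS for CMPK2 (1.44 ± 0.39, adjusted p = 0.00562) and IFIT5 (0.27 ± 0.09, adjusted p = 0.021), the latter not called with library sizes alone (adjusted p = 0.181). It was lower in OIS for CXCL10 (-0.70 ± 0.18, adjusted p = 0.00292), IFI35 (-0.52 ± 0.14, adjusted p = 0.00498), IRF1 (-0.49 ± 0.08, adjusted p = 1.21e-05), PARP14 (-0.29 ± 0.09, adjusted p = 0.0122) and OAS3 (-0.26 ± 0.09, adjusted p = 0.0352).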

How the results depend on the processing

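Of 4887 recomputed values of the 202 member calls, 4594 kept the call, 293 lost it and 0 changed direction. Of these values 2720 came from fits that left out 1 library and so shared nearly all others. Members without a call in the main fit were not followed. Some of them, such as OASL in OIS-v-v against Grow-v-v, went in opposite directions in numbers 1 to 3 and in 4 and 5. Asking for at least 1.5-fold left 5 higher in OIS against Grow, 2 higher and 1 lower in Grow-shA1, 2 and 1 in OIS-shA1 against OIS, 2 higher in OIS-shA1 against Grow-shA1, 4 higher in OIS-v-v, 14 higher in OIS-shCEBPB, 3 and 0 in H1299-shA1 and 1 and 1 in the interaction of shA1 with OIS. Among all genes, 1.5-fold left 2302 of 13304 higher in OIS against Grow and 2087 of 13239 in OIS-shA1 against Grow-shA1. It left 341 higher and 396 lower of 13072 in Grow-shA1, and 446 and 535 of 13327 in OIS-shA1 against OIS. It left 1651 of 13344 higher in OIS-v-v and 546 of 13396 in OIS-shCEBPB. It left 245 higher and 113 lower of 14840 in H1299-shA1, and 347 and 436 of 13903 in the interaction of shA1. An adjusted p under 0.01 left 7 members higher in Grow-shA1, 4 in OIS-v-v and 14 in OIS-shCEBPB. It left 2 higher and 0 lower in H1299-shA1 and 1 and 3 in the interaction of shA1. DESeq2 gave a median of -0.38 in OIS against Grow, 1 lower in OIS-shCEBPB, 5 lower in H1299-shA1 and 1 higher in the interaction of shCEBPB with shp53, and its size factors in edgeR gave 1 lower in OIS-shCEBPB. Library sizes alone gave a median of 0.05 in OIS against Grow and 1 higher and 10 lower in the interaction of shA1. Of all 13903 genes in that interaction, 888 were higher and 3456 lower. No filter gave a median of -0.38 in OIS against Grow. At least 10 counts in every library, which tests fewer genes, gave 7 higher and 9 lower in OIS against Grow, 3 lower in OIS-shA1 against OIS, a median of 1.28 in OIS-shCEBPB-shp53, 3 higher in H1299-shA1, 1 higher in the interaction of shA1 and 5 members called alike in both OIS experiments. That filter called 3928 of all 10077 genes higher and 3901 lower in OIS against Grow, and 1951 of 10149 lower in OIS-shA1 against OIS. It called 1266 of 13792 higher in H1299-shA1 and 1546 of 10054 in the interaction of shA1. DESeq2 called 1289 of 15128 genes lower in OIS-shCEBPB and 1219 of 15964 in H1299-shA1. All-gene counts are not given here for an adjusted p under 0.01, for single libraries left out or for members called alike in both experiments. With 3 free bases the promoter letters gave 6 members. The cause was not tested for the other shifts.

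The replicate block gave 1 lower in OIS-shCEBPB, 37 higher and 1 lower in OIS-shp53, 5 lower in H1299-shA1 and 3 higher in the interaction of shCEBPB with shp53. With the block, 1146 of all 14758 genes were lower in H1299-shA1. Numbers did not pair the samples in the first experiment or H1299. There the block ended the calls of MX2, PARP9 and IFI27 in Grow-shA1, OAS3 in OIS-shA1 against OIS and USP18 in H1299-shA1, and in the second experiment that of DDX58 in OIS-v-v against Grow-v-v. Numbers 1 to 3 only gave 21 lower in OIS-v-v, a median of 1.83 in OIS-shCEBPB-shp53, 7 higher and 1 lower in the interaction of shCEBPB with shp53 and 16 members called alike in both OIS experiments. Numbers 4 and 5 only gave 18 higher and 4 lower with a median of 0.57 in OIS-v-v, 1 lower in OIS-shCEBPB, a median of 1.26 in OIS-shCEBPB-shp53 and 2 higher in the interaction.

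Leaving out 1 library gave 19 to 26 higher, 0 to 1 lower (1 without OIS-v-v replicate 2) and a median of 0.46 to 0.57 in OIS-shCEBPB, 19 to 27 higher and a median of 0.56 to 0.90 (0.90 without OIS-v-v replicate 4) in OIS-shp53, 39 to 41 higher and a median of 1.41 to 1.77 in OIS-shCEBPB-shp53, and 3 to 6 higher (3 without H1299-shA1 replicate 4) and 3 to 5 lower (5 without H1299-shA1 replicate 7 and without H1299 replicate 1) in H1299-shA1. Single libraries also ended the calls of MX1 in OIS-shA1 against Grow-shA1 (7 of 16 libraries), IFIT2 (3) and OAS3 (2 of 16) in OIS-shA1 against OIS, OAS3 in the interaction of shA1 with OIS (9 of 32), DDX58 (6) and ISG20 (4 of 10) in OIS-v-v against Grow-v-v, SAMD9 (5) and IFITM3 (1 of 10) in OIS-shCEBPB, and LGALS3BP (8), IFITM3 (6), EPSTI1 (6) and OAS3 (1 of 10) in OIS-shp53. Members near 1 CPM rest on few counts, most of all in OIS replicate 4.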
